A study of Mus musculus with 16 samples.

Results

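The matrix metalloproteinases, the ADAM, ADAMTS and ADAMTS-like genes and the tissue inhibitors of metalloproteinases were followed in p53−/−; Myc hepatoblasts, a mouse liver progenitor line that lacks the tumor suppressor p53 and overexpresses the Myc oncogene. The members were all genes of the deposited table whose symbol is Mmp, Adam, Adamts, Adamtsl or Timp followed by a number, pseudogenes left out, with at least 10 counts in total over the 16 libraries. Of 85 such symbols, 61 reached this total, among 20444 genes of 40840 that did. They are 18 MMPs, 18 ADAMs, 17 ADAMTS proteases, 5 ADAMTS-like proteins and 3 TIMPs. Messenger RNA was sequenced from cells given sorafenib, a multikinase inhibitor used against hepatocellular carcinoma, at 8.5 µM or its vehicle DMSO. Treatment lasted 48 hours or 7 days, with 4 replicate libraries in each of the 4 groups. All 16 libraries thus carry the loss of p53 and the Myc overexpression, and the labels give their cell type as HCC. They come from a single line grown in culture. No label says that replicates were separate cultures, so p-values measure the spread between these libraries, which may be technical.

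Metalloproteinases of these families hold a zinc ion in the active site and are made as inactive precursors. MMPs, secreted or bound to the membrane, cut collagens, gelatin, laminins and other proteins of the extracellular matrix. ADAMs are mostly membrane proteins, and those with an active protease domain release the outer parts of growth factors, receptors and adhesion molecules, a step known as shedding. ADAMTS enzymes are secreted and trim procollagens, proteoglycans such as versican and fibrillin-bound proteins, whereas ADAMTS-like proteins share their accessory domains without the protease. TIMPs bind the active site of MMPs, and Timp3 also blocks several ADAM and ADAMTS enzymes. In the liver, these genes are known for their part in the turnover of scar matrix, in regeneration and in tumor invasion, and stellate cells and fibroblasts are a main source of several of them.

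Total counts per library were 16586254 to 30828427 (median 26360677). Below, a normalized count is a count scaled for library total and the TMM factor of edgeR, given as mean ± SD (n = 4). A gene was called at a Benjamini-Hochberg FDR under 0.05 in edgeR's quasi-likelihood test over all tested genes. Counts of sorafenib 48 hours replicate 2 had a step of −0.725 on the log2 scale from a place on chromosome 14 onward. This region runs through chromosomes 15 to 19 and X, which hold 8 of the members. Their 48 hour values are also given without this library, except for Mmp25, which had 1 count in each 48 hour group. Values of members outside the region also moved without it, as for Mmp28 below. Alb and Hnf4a had fewer than 10 counts in total over the 16 libraries and were not tested. Afp, Ttr and Apoa1 averaged at most 9.45 normalized counts in DMSO, so these hepatocyte transcripts were nearly absent. Krt8 and Krt18, from the same list of 8 markers, were present and were called lower at both times. Krt8 went from 114.3 to 70.3 at 48 hours and from 136.1 to 63.5 at 7 days. Krt18 went from 286.3 to 216.5 and from 335.1 to 177.3, and both genes lie in the region of lowered counts. Dlk1, a hepatoblast marker, fell from 32230 to 10440 under sorafenib at 48 hours and from 16770 to 4020 at 7 days. Of 5 bile duct and progenitor markers, 2 rose and 3 fell at 48 hours, and 1 rose and 4 fell at 7 days. Krt19 fell from 2626 to 1537 and from 1457 to 1016, and Krt7, in the lowered region, from 1877 to 489.9 and from 3643 to 111.3. Sox9 rose from 212.5 to 664.2 and from 349.7 to 904. The 10 fibroblast and stellate cell markers summed to 115900 to 124100 with DMSO and 126400 to 203100 with sorafenib, mostly from Col1a1, Col3a1 and Acta2, and of them 5 rose and 4 fell at 48 hours and 4 rose and 6 fell at 7 days, when Lum was at 0 with sorafenib. Of 6 leukocyte markers, Ptprc, Adgre1 and Lyz2 had fewer than 10 counts in total and were not tested. Cd68 averaged 66.02 to 69.1 in every group, and Csf1r fell from 69.7 to 13.8 at 7 days. Of 6 endothelial markers, Cdh5 had fewer than 10 counts in total, and of the 5 tested 2 were called higher and 1 lower at each time. Kdr rose from 48.5 to 121.7 at 48 hours and from 31.3 to 196.9 at 7 days. Tek fell from 18.1 to 6.16 at 48 hours and from 13.5 to 6.97 at 7 days. In bulk RNA, fewer cells of a type and less RNA per cell cannot be told apart, and the part of these marker shifts in the results was not tested.

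After 48 hours of sorafenib, 42 of the 61 members were called, 27 higher and 15 lower than with DMSO, against 54.6% of all genes tested (26.9% higher, 27.7% lower). After 7 days, 49 were called, 25 higher and 24 lower, against a background of 56.8% (28.9% higher, 27.9% lower). The median log2 fold change over the members was 0.27 at 48 hours, where that over all tested genes was −0.05, and 0.17 at 7 days, where it was 0.02. The 4 sorafenib libraries did not overlap the 4 DMSO libraries for 39 members at 48 hours (48.0% of all genes) and for 49 at 7 days (56.8% of all genes). These were 27 higher and 12 lower members at 48 hours (23.1% and 24.9% of all genes), and 26 and 23 at 7 days (28.5% and 28.4%). Without sorafenib 48 hours replicate 2, the 48 hour comparison called 47 members, 30 higher and 17 lower. The share of all genes called in that fit was not computed, so the change from 42 to 47 cannot be set beside a background. Highly expressed genes are called more often. Among the 42 members that averaged 50 or more normalized counts, 37 were called at 48 hours and 38 at 7 days, against 75.8% and 75.9% of all genes at that level.

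Of the 61 members, 18 were called higher at both times and 11 lower at both. Another 6 were higher at 48 hours and lower at 7 days (Mmp14, Mmp17, Adam12, Adamts7, Adamts12 and Adamts16), and 2 did the opposite (Adamts1 and Adamts4). By 7 days, 5 members had risen that were not called at 48 hours, and 7 had fallen, among them Adam10, Adam33 and Adamts20. The share of all genes in each of these joint patterns was not computed, so whether the members differ from it was not tested. At each time alone, 54.6% and 56.8% of all genes were called. The test of the difference between the 7 day and the 48 hour response, the interaction, called 35 members, 27 of them with the lower response at 7 days, against 36.8% of all genes (21.3% with the lower response at 7 days and 15.5% with the higher). Its median over the members was −0.45, against 0.02 over all genes tested. Of the 42 members that averaged 50 or more normalized counts it called 33 (55.2% of all genes at that level).

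**Figure D1:**
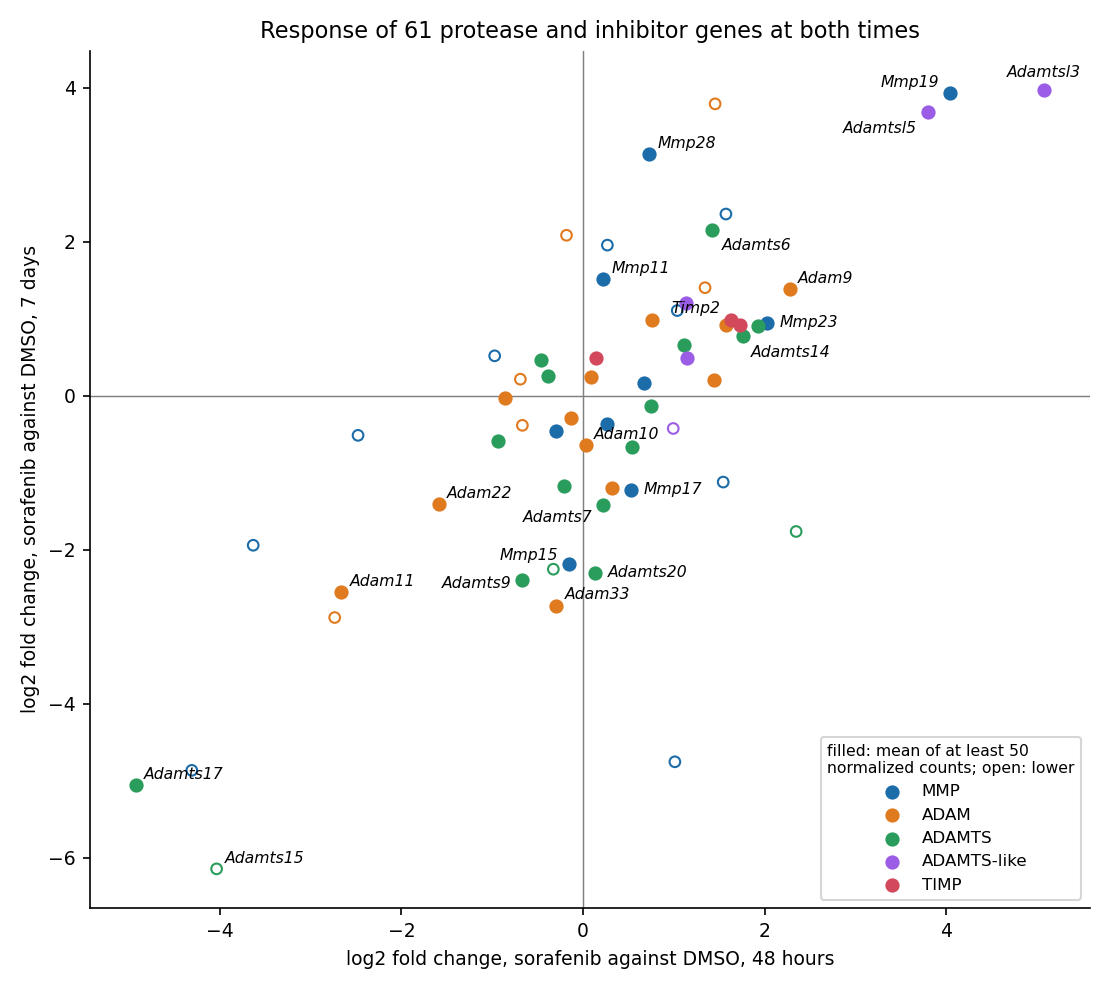
Log2 fold change of each of the 61 members under sorafenib at 48 hours (horizontal) and at 7 days (vertical), with colors for the 5 families and open circles for members with a mean under 50 normalized counts. Adamtsl3, Adamtsl5 and Mmp19 lie at the upper right, Adamts17 and Adamts15 at the lower left, and Mmp15, Adam33, Adamts9 and Adamts20 between −0.67 and 0.13 on the horizontal axis but below −2 on the vertical one. Values of genes with no counts in a group (Mmp8, Mmp27, Mmp3 and Adam28) depend on the prior count of the fit.

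The inhibitors rose. Timp2 and Timp3 were higher at both times and Timp1 at 7 days, which is all 3 TIMP members, with none lower. Among all genes, 26.9% were called higher at 48 hours and 28.9% at 7 days. Timp3 (chr10:86136236-86185371, plus strand in GRCm39), the matrix-bound inhibitor that also acts on ADAM17 and on aggrecan-cleaving ADAMTS enzymes, had 8392, 8505, 8671 and 8761 normalized counts in DMSO replicates 1 to 4 at 48 hours and 27291, 30364, 28413 and 27907 in the sorafenib replicates. At 7 days the DMSO libraries had 14573, 15744, 15048 and 14986 and the sorafenib libraries 29056, 28878, 28479 and 28248. Every sorafenib library lay above every DMSO library of either time, with means of 28494 and 28665 in the sorafenib groups and 8582 and 15088 in the DMSO groups. The log2 fold change was 1.73 (SE 0.0334, edgeR FDR 3.88e-19) at 48 hours and 0.93 (SE 0.0327, edgeR FDR 2.88e-15) at 7 days. Syn3 lies on the opposite strand over 21.3% of the exon bases of Timp3, but its own mean was at most 42.2 normalized counts in any group.

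Timp2 (chr11:118191887-118246566, minus strand), which inhibits MMPs and also takes part with Mmp14 in the activation of Mmp2, followed the same course. Its DMSO libraries had 6456, 6731, 6378 and 6807 normalized counts at 48 hours, against 20289, 21153, 20154 and 19655 with sorafenib. At 7 days they had 10752, 11637, 11433 and 11582, against 23625, 22357, 22142 and 22092. No sorafenib library overlapped a DMSO library at either time, and the rise was 3.08-fold at 48 hours, a log2 fold change of 1.62 (SE 0.035, edgeR FDR 1.62e-18), and 1.99-fold at 7 days (log2 fold change 0.99, SE 0.0343, edgeR FDR 2.18e-15). From 48 hours to 7 days in DMSO, Timp2 rose by 0.78 and Timp3 by 0.81 on the log2 scale (edgeR FDR 3.38e-13 and 1e-13). The interaction was −0.63 (edgeR FDR 2.44e-09) for Timp2 and −0.81 (edgeR FDR 3.2e-11) for Timp3. Cep295nl shares 7.44% of the exon bases of Timp2 on the same strand and averaged at most 115 normalized counts.

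Timp1 (chrX:20736316-20740976, plus strand), a secreted inhibitor of most MMPs, was per length the least abundant of the 3 in each group. Its values at 48 hours were 427, 412, 375 and 389 with DMSO and 536, 265, 469 and 487 with sorafenib. Replicate 2, the library with lowered counts on this chromosome, was the lowest of the 8, while the other sorafenib libraries were above all DMSO libraries. The log2 fold change was 0.15 (SE 0.126, edgeR FDR 0.355) with this library and 0.30 (edgeR FDR 6.2e-05) without it. At 7 days, values were 506, 548, 568 and 593 with DMSO and 812, 756, 757 and 793 with sorafenib, with no overlap and a log2 fold change of 0.49 (SE 0.114, edgeR FDR 0.00099). Timp4, the remaining family member, had 7 counts over all libraries and was not tested.

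**Figure D2:**
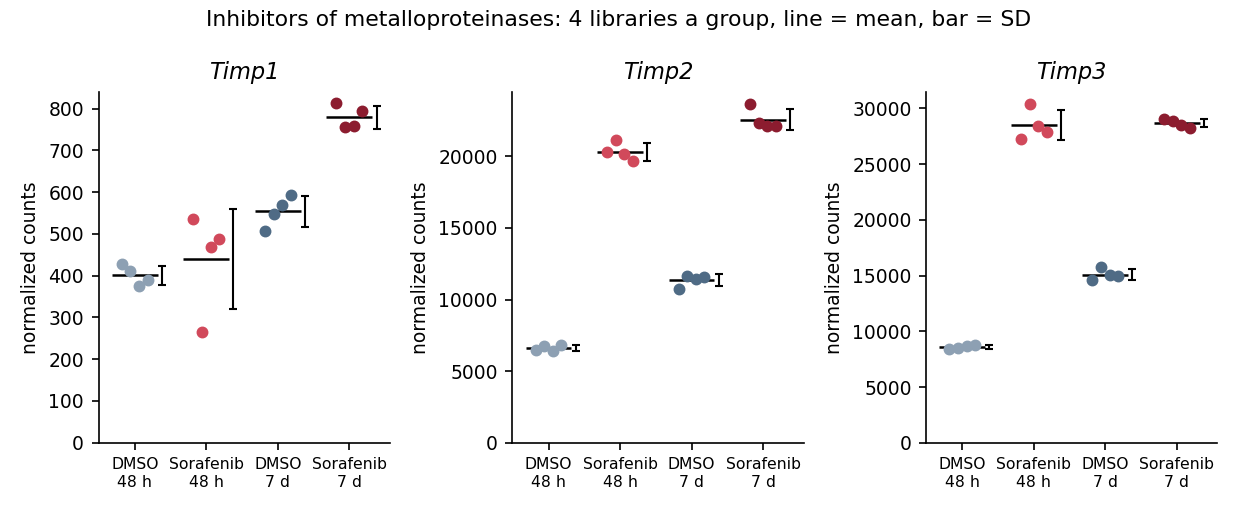
Normalized counts of Timp1, Timp2 and Timp3 in each of the 16 libraries (points), with the group mean (line) and SD (bar beside the points, n = 4). Sorafenib libraries of Timp2 and Timp3 lie above all DMSO libraries at both times, and for Timp1 the low point among the sorafenib libraries at 48 hours is replicate 2.

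To set inhibitors beside proteases, CPM after TMM scaling was divided by exon length in kilobases and summed over each family. The 3 TIMPs together had 109 ± 2.18 CPM per kilobase with DMSO and 329 ± 9.12 with sorafenib at 48 hours, and 186 ± 6.22 and 357 ± 8.33 at 7 days. The 18 MMPs together moved far less under the drug, from 104 ± 1.9 to 115 ± 3.63 at 48 hours and from 56.2 ± 1.35 to 58.6 ± 0.561 at 7 days. The ratio of the TIMP sum to the MMP sum was 1.05 ± 0.0153 with DMSO and 2.86 ± 0.0752 with sorafenib at 48 hours. At 7 days it was 3.31 ± 0.184 with DMSO and 6.09 ± 0.13 with sorafenib. These sums describe transcript levels in the 4 libraries of each group and were not tested, and they say nothing of active enzyme.

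Among the secreted MMPs, gelatinase and stromelysin-type genes with measurable levels went different ways. Mmp2 (chr8:93553902-93580049, plus strand), gelatinase A, was lower under sorafenib by less than it changed with time in vehicle. Its DMSO libraries had 4494, 4673, 4642 and 4737 normalized counts at 48 hours and 1543, 1457, 1411 and 1391 at 7 days. With sorafenib they were 3724, 4019, 3549 and 3836 at 48 hours and 1063, 1081, 1048 and 1048 at 7 days. Groups did not overlap in either comparison. Mmp2 fell by 0.30 on the log2 scale (SE 0.0388, edgeR FDR 1.7e-06) at 48 hours and had a log2 fold change of −0.45 (SE 0.0416, edgeR FDR 1.02e-08) at 7 days, while the DMSO groups differed by −1.68 (SE 0.0403, edgeR FDR 1.2e-16). Mmp9, gelatinase B, had 22 counts over all 16 libraries and at most 6 in any of them. Its log2 fold change was 1.04 (edgeR FDR 0.64) at 48 hours and 1.11 (edgeR FDR 0.342) at 7 days, which did not pass the test.

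Mmp11 (chr10:75759055-75772330, minus strand), stromelysin-3, is activated inside the cell by furin-type proteases. It was 1122 ± 35.3 with DMSO and 1309 ± 80.7 with sorafenib at 48 hours, a log2 fold change of 0.22 (SE 0.0535, edgeR FDR 0.00139). At 7 days, DMSO libraries had 475, 404, 426 and 399 normalized counts and sorafenib libraries 1259, 1152, 1194 and 1271. The groups were far apart, the DMSO mean being 426 against 1122 at 48 hours and the sorafenib mean 1219 against 1309. The 7 day log2 fold change was 1.52 (SE 0.0573, edgeR FDR 8.44e-15), with an interaction of 1.30 (edgeR FDR 7.63e-11). Chchd10, on the opposite strand over 4.4% of the exon bases of Mmp11, also rose (2.33 and 1.87). Whether the counting used strand is not given in the sources used here, and the share of such reads was not tested.

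Mmp19 (chr10:128626773-128636695, plus strand) had the largest rise of the 18 MMPs on the log2 scale at both times. Its values at 48 hours were 6.84, 14.7, 15.3 and 12.1 with DMSO and 174, 188, 237 and 206 with sorafenib, and at 7 days 20.5, 24.8, 27.6 and 32.5 with DMSO and 376, 432, 421 and 401 with sorafenib. The lowest sorafenib library at 48 hours was still far above the highest DMSO library of either time. The log2 fold changes of 4.03 (SE 0.166, edgeR FDR 3.61e-14) and 3.94 (SE 0.129, edgeR FDR 8.63e-16) differed by less than the error of their difference, with an interaction of −0.10 (edgeR FDR 0.808). Tmem198b overlaps 30.6% of its exon bases on the opposite strand, and its own log2 fold changes were −0.48 and 0.06 (edgeR FDR 2.32e-05 and 0.525). Mmp28, epilysin, was 35.9 ± 5.53 with DMSO and 60.8 ± 16.1 with sorafenib at 48 hours. At 7 days its DMSO libraries fell to 17.3, 8.57, 12.1 and 12.99 and its sorafenib libraries had 97.9, 116, 115 and 113, with no overlap. The log2 fold changes were 0.73 (edgeR FDR 0.00144) and 3.14 (edgeR FDR 1.24e-11). Without sorafenib 48 hours replicate 2, the 48 hour value of Mmp28 was 0.56 (edgeR FDR 0.006). The gene 1700020L24Rik, over 12.9% of the exon bases of Mmp28, rose as well (1.16 and 2.76), a contribution that was not tested. Mmp23, an MMP anchored by its N-terminal part, rose from 217 ± 14 to 888 ± 40.3 at 48 hours (log2 fold change 2.03, edgeR FDR 5.36e-17) and from 251 ± 10.2 to 484 ± 14.5 at 7 days (log2 fold change 0.94, edgeR FDR 9.55e-12).

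Of the 6 membrane-type MMPs, 3 were called higher and 1 lower at 48 hours, and 3 higher and 3 lower at 7 days, against 54.6% and 56.8% of all genes called in either direction. Mmp14 (chr14:54668878-54682821, plus strand), the main membrane activator of Mmp2, changed direction. It had 4359.5, 4159.9, 4358 and 4500.4 normalized counts with DMSO and 5200, 5206, 5110 and 5272 with sorafenib at 48 hours, and 3167, 3027, 3095 and 3076 with DMSO and 2439.8, 2382, 2322 and 2414 with sorafenib at 7 days. All sorafenib libraries were above DMSO at 48 hours and all were below it at 7 days. The log2 fold changes were 0.26 (SE 0.0303, edgeR FDR 3.59e-07) and −0.37 (SE 0.0309, edgeR FDR 2.18e-09), with an interaction of −0.63 (edgeR FDR 5.17e-10). Mmp17, held in the membrane by a lipid anchor, also crossed over. Its means were 258 ± 17.96 and 374 ± 32.8 at 48 hours (log2 fold change 0.53, edgeR FDR 1.38e-06) and 553 ± 16.8 and 236 ± 10.2 at 7 days (log2 fold change −1.23, edgeR FDR 2.03e-12).

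Mmp15 (chr8:96078895-96101708, plus strand), a transmembrane relative of Mmp14, fell mainly late. At 48 hours its groups overlapped, with 585 to 623 normalized counts under DMSO and 494 to 589 under sorafenib. The 48 hour log2 fold change of −0.16 (edgeR FDR 0.0341) did not pass without DMSO 48 hours replicate 2 (edgeR FDR 0.091) or without sorafenib 48 hours replicate 3 (edgeR FDR 0.0726). Nor did it pass when genes with at least 1 count were all kept (edgeR FDR 0.16). At 7 days, DMSO libraries had 710.4, 715, 782 and 697 and sorafenib libraries 142, 175, 155 and 164. No sorafenib library came near the DMSO range, and the log2 fold change was −2.19 (SE 0.0673, edgeR FDR 3.2e-16). Mmp16 rose at 48 hours (log2 fold change 0.68, edgeR FDR 1.4e-09) and by less at 7 days (log2 fold change 0.17, edgeR FDR 0.0141), where the call was lost without sorafenib replicate 3 (FDR 0.0543). Mmp24 and Mmp25 were called higher at 7 days on few reads. Mmp24 had 1, 5, 5 and 4 counts in the DMSO libraries and 18, 18, 29 and 13 in the sorafenib libraries, and no library of Mmp25 had more than 4. The call of Mmp25 was lost without DMSO replicate 1 or sorafenib replicate 3 or 4 (FDR 0.0582 to 0.0684). It was also lost in DESeq2 (FDR 0.0805) and in edgeR with a replicate block (FDR 0.0831).

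Collagenases and the other stromelysins were near the floor of detection. A count of 3 was taken as the level that cannot be told from stray reads. Mmp8, a collagenase best known from neutrophils, had 4, 5, 1 and 0 counts with DMSO at 48 hours and 4, 6, 3 and 2 at 7 days, and no count in any of the 8 sorafenib libraries. Its DMSO libraries held at most 6 counts each, so no fold is given although edgeR called it at both times (FDR 0.0264 and 0.00533), and the 48 hour call was lost when DMSO replicate 1 or 2 or sorafenib replicate 3 was left out (FDR 0.0538 to 0.0684). That call was also lost with only the 8 libraries compared (edgeR FDR 0.07) and with a replicate block (edgeR FDR 0.0716). Mmp3 had no counts with sorafenib at 48 hours and 1, 1, 1 and 3 at 7 days, against 5, 11, 5 and 4 with DMSO, a fall of 4.12-fold (95% interval 1.65 to 12.3) by counting. The edgeR call at 7 days (log2 fold change −1.94, edgeR FDR 0.0285) was lost when DMSO replicate 2 or sorafenib replicate 1, 2 or 3 was left out (FDR 0.0582 to 0.107). Mmp10 was at 1, 7, 1 and 8 with DMSO and 0, 0, 2 and 0 with sorafenib at 48 hours, and at 22, 20, 22 and 24 with DMSO and 14, 20, 12 and 15 with sorafenib at 7 days. Its 48 hour value of −2.48 (edgeR FDR 0.022) was −5.04 without sorafenib replicate 3 and did not pass without DMSO replicate 2 or 4 or sorafenib replicate 1 or 4 (FDR 0.0505 to 0.0782). With only the 8 libraries compared it did not pass either (edgeR FDR 0.0719). Both stromelysins were thus higher in the 7 day than in the 48 hour DMSO libraries (log2 fold changes 1.94, edgeR FDR 0.032, and 2.34, edgeR FDR 5.87e-05), and the rise over time was also called for the collagenase Mmp13 (log2 fold change 1.74, edgeR FDR 0.000237). Mmp13 itself did not pass under sorafenib, at −0.97 (edgeR FDR 0.142) and 0.52 (edgeR FDR 0.0911), but was called at 48 hours without replicate 2 of the sorafenib group (log2 fold change −1.62, edgeR FDR 0.0347).

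Promoters of several MMPs are known to carry an AP-1 element, the site bound by Fos and Jun proteins, and the promoters were searched for it after the values were seen. The letters TGANTCA, on either strand, were present within the 250 bases before the start of the canonical transcript in 8 of 61 members (13.1%), against 4.9% of 14609 promoters of tested genes. They are shown because they fall on genes called higher, on genes called lower and on genes not called. Adamts15, Adamts17 and Adam11, among the largest falls, had no match. Sequences are from GRCm39 with GENCODE vM39 starts, on the strand of the gene, with the match in capitals.
Mmp19: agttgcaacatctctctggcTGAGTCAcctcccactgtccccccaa
Mmp28: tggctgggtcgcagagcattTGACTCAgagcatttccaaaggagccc
Adam19: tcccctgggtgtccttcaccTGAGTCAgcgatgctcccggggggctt
Mmp3: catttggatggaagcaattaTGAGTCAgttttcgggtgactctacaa
Mmp10: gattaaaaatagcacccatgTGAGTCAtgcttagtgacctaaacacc
Mmp13: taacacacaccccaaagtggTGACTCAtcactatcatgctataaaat
Mmp9: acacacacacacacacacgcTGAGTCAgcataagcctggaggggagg
Adamts3: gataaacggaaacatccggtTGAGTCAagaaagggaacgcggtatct
The windows lie at chr10:128626727-128626772, chr11:83354164-83354210, chr11:45946660-45946706, chr9:7445756-7445802, chr9:7502260-7502306, chr9:7272459-7272505, chr2:164790050-164790096 and chr5:90031823-90031869, in that order, and their first matching base is 26, 204, 95, 46, 73, 35, 69 and 200 bases before the start. Among the 8, Mmp19, Mmp28 and Adam19 were called higher at both times and Adamts3 lower at both. Mmp3 was called lower at 7 days and Mmp10 at 48 hours, whereas Mmp9 and Mmp13 were not called. A match is a run of letters and was not tested for binding.

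Of the 18 ADAMs, 5 rose and 4 fell at 48 hours, and 5 rose and 7 fell at 7 days. That is 9 called of 18 at 48 hours and 12 of 18 at 7 days, against 54.6% and 56.8% of all genes. Adam9 (chr8:25439626-25507096, minus strand), a membrane protease with a disintegrin domain, had the largest 48 hour rise of the ADAMs. DMSO libraries had 3363, 3465, 3307 and 3321 normalized counts at 48 hours and sorafenib libraries 15635, 17424, 16430 and 15740. At 7 days these were 5901, 6511, 6211 and 6277 with DMSO and 16091, 16500, 16641 and 15779 with sorafenib. The means of the sorafenib groups, 16307 and 16253, were closer than the spread of their libraries, and every sorafenib library was above every DMSO library. The rise was 4.85-fold at 48 hours, a log2 fold change of 2.28 (SE 0.0384, edgeR FDR 6.02e-20), and 2.61-fold at 7 days (log2 fold change 1.38, SE 0.0371, edgeR FDR 3.88e-17), and the DMSO groups themselves differed by 0.89 (SE 0.0373, edgeR FDR 1.79e-13). Tm2d2, on the opposite strand over 9.103% of its exon bases, rose by 0.96 and 1.05, at 792 to 1963 normalized counts, and its share of the counts was not tested.

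The 2 best known sheddases, Adam10 and Adam17, were lower at 7 days, while Adam9 and Adam15 were higher. Adam10 (chr9:70586221-70687511, plus strand), the protease that cleaves Notch receptors and sheds many adhesion proteins, had 11705, 12300, 12117 and 11881 normalized counts with DMSO and 11737, 12325, 12500 and 12350 with sorafenib at 48 hours. These ranges overlapped, and the log2 fold change was 0.03 (SE 0.0272, edgeR FDR 0.426). At 7 days, DMSO libraries had 14620, 14441, 14491 and 14366 and sorafenib libraries 9188, 9435, 9408 and 9078. All 4 sorafenib libraries were below all others of the study, and the gene fell by 0.64 on the log2 scale (SE 0.0272, edgeR FDR 5.44e-14), with an interaction of −0.67 (edgeR FDR 3.48e-11).

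Adam17 (chr12:21373510-21423672, minus strand), which releases TNF and EGF receptor ligands, was lower in every sorafenib library at both times, but by little. Its means were 2719 ± 62.6 and 2484 ± 51.98 at 48 hours (log2 fold change −0.13, edgeR FDR 0.000917) and 2409.9 ± 33.1 and 1977 ± 27.2 at 7 days (log2 fold change −0.29, edgeR FDR 7.21e-08). Adam15 (chr3:89245846-89257511, minus strand), a membrane protease with an integrin-binding motif, had 2250.2, 2243, 2248 and 2359 with DMSO and 3719.7, 4042, 3889 and 3698 with sorafenib at 48 hours. At 7 days it had 1848, 1833, 1860.2 and 1711 with DMSO and 3727, 3457, 3539 and 3626 with sorafenib. Groups did not overlap, and the log2 fold changes were 0.75 (SE 0.0382, edgeR FDR 9.74e-13) and 0.98 (SE 0.0384, edgeR FDR 1.42e-14). The interaction of 0.23 (edgeR FDR 0.00194) was small, so the rise of Adam15 was slightly larger at 7 days.

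**Figure D3:**
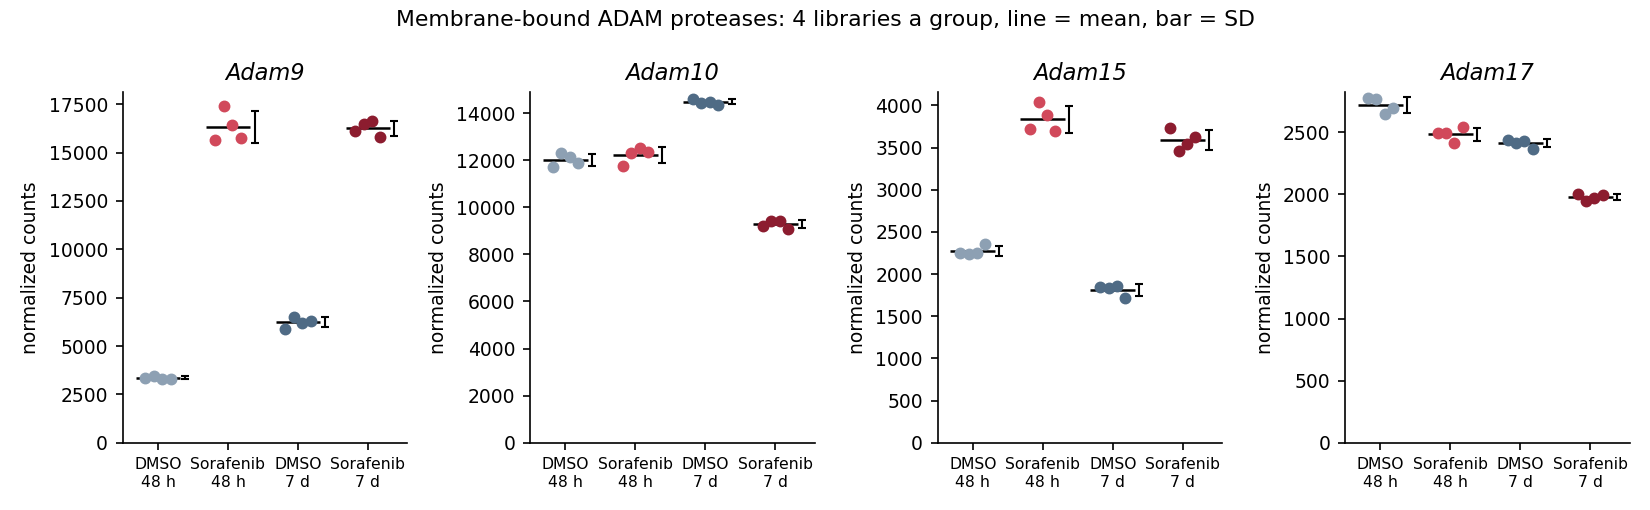
Normalized counts of Adam9, Adam10, Adam15 and Adam17 in each of the 16 libraries (points), with the group mean (line) and SD (bar, n = 4). Adam9 and Adam15 are higher under sorafenib at both times, Adam10 is lower at 7 days with overlapping ranges at 48 hours, and Adam17 is slightly lower at both.

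Adam12 and Adam19, the meltrins, are expressed in mesenchymal cells and both have an active protease domain. Adam19 rose at both times, from 259 ± 18.4 to 771 ± 55.4 (log2 fold change 1.57, edgeR FDR 6.42e-14) and from 281 ± 12.6 to 531 ± 36.4 (log2 fold change 0.92, edgeR FDR 2.84e-10). Adam12 rose slightly at 48 hours, from 254 ± 20.03 to 316 ± 32.7 (log2 fold change 0.32, edgeR FDR 0.00104), and fell at 7 days, from 498 ± 7.196 to 217 ± 11.97 (log2 fold change −1.20, edgeR FDR 7.86e-12). Adam33, a further active ADAM, had overlapping ranges at 48 hours, 203 to 269.5 with DMSO and 134 to 221 with sorafenib, and did not pass (log2 fold change −0.30, edgeR FDR 0.0698). It was called at 48 hours when DMSO replicate 1 or 2 or sorafenib replicate 2 or 4 was left out, with log2 fold changes of −0.35 to −0.43. At 7 days its values were 287, 239, 257 and 265 with DMSO and 30.4, 35.7, 42.9 and 48.2 with sorafenib, a fall to well below the DMSO range and a log2 fold change of −2.72 (SE 0.164, edgeR FDR 1.41e-11).

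Adam11, Adam22 and Adam23 lack a working protease site and are known as membrane adhesion proteins and as partners of the LGI proteins in neurons. Adam11 (chr11:102652229-102671088, plus strand) had 531, 531, 505 and 576 normalized counts with DMSO and 68.8, 92.2, 82.8 and 94.3 with sorafenib at 48 hours, and 129, 107, 123 and 133 with DMSO and 29.2, 22.7, 15.7 and 16.7 with sorafenib at 7 days. It was lower in every sorafenib library, and it was also lower at 7 days than at 48 hours within DMSO. The log2 fold changes were −2.66 (SE 0.101, edgeR FDR 1.01e-14) and −2.55 (SE 0.149, edgeR FDR 8.86e-12) for the drug and −2.13 (SE 0.0908, edgeR FDR 2.23e-13) for time in vehicle. Adam22 was 742 ± 51.4 with DMSO and 246 ± 15.6 with sorafenib at 48 hours (log2 fold change −1.59, edgeR FDR 2.06e-14), and 504 ± 19.9 and 191 ± 9.903 at 7 days (log2 fold change −1.40, edgeR FDR 2.11e-13). Sri overlaps 31.1% of its exon bases on the opposite strand, with log2 fold changes of 0.04 and 0.20 (edgeR FDR 0.492 and 0.00025). Adam23 rose at 48 hours, from 44.05 ± 3.12 to 120.2 ± 11.7 (log2 fold change 1.44, edgeR FDR 3.71e-10), and was 0.21 (edgeR FDR 0.0584) at 7 days, called there without DMSO replicate 2 or sorafenib replicate 3 (FDR 0.0499 and 0.0278). Adam8, an active protease best known from leukocytes, fell at 48 hours from 75.2 ± 10.7 to 42.4 ± 12.2 (log2 fold change −0.86, edgeR FDR 0.00018) and had 53.6 ± 7.12 and 52.4 ± 4.57 at 7 days (log2 fold change −0.03, edgeR FDR 0.909).

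The letters CACGTG, an E-box of the kind that Myc binds and the same on both strands, were present in the 250 bases before the start of 4 of 61 members (6.6%), against 7.4% of the promoters of tested genes. They are shown because the cells overexpress Myc.
Adam10: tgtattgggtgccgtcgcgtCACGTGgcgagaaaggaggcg
Adam11: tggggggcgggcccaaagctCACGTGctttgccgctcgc
Adamts17: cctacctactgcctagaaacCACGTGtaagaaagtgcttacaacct
Adam32: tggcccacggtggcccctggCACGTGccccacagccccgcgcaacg
The windows lie at chr9:70586180-70586220, chr11:102652190-102652228, chr7:66489290-66489335 and chr8:25438846-25438891 in GRCm39, with the match in capitals. Adam11 and Adamts17 were called lower at both times, Adam10 was called lower and Adam32 higher at 7 days. The letters TGATGNAAT, the element bound by ATF4 with C/EBP proteins, searched on both strands, were in none of the 61 windows and in 0.445% of promoters. None of the 3 motifs contains another, and all were chosen after the values were seen. The median GC content of the 250 bases was 56.8% over the members and 56.4% over the promoters of tested genes.

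Most of the called differences in response among the ADAMTS proteases were toward lower values at 7 days. Of 17, 8 rose and 7 fell at 48 hours, 6 rose and 10 fell at 7 days, and the interaction was called lower for 10 and higher for 4. Of all genes, 26.9% rose and 27.7% fell at 48 hours, 28.9% rose and 27.9% fell at 7 days, and the interaction was lower for 21.3% and higher for 15.5%. Among the 7 that cut versican, aggrecan and related proteoglycans, Adamts9 (chr6:92749680-92920520, minus strand) had the highest level per length with DMSO at 7 days, 12.3 ± 0.092 CPM per kilobase. In the other groups Adamts1 was above it. The levels were 18.81 against 11.35 with DMSO at 48 hours, and 14.33 against 7.129 and 12.42 against 2.342 with sorafenib at 48 hours and 7 days. For Adamts9, DMSO libraries had 4221, 4376, 4105 and 4523 normalized counts at 48 hours and 4674, 4703, 4629 and 4634 at 7 days. Sorafenib libraries had 2601, 2731, 2675 and 2812 at 48 hours and 912, 871, 900.0 and 872 at 7 days. They did not overlap DMSO at either time, and the 7 day group was also well below the 48 hour one. The log2 fold change went from −0.67 (SE 0.0346, edgeR FDR 1.31e-12) to −2.39 (SE 0.037, edgeR FDR 1.12e-20), with an interaction of −1.72 (edgeR FDR 1.59e-15).

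Adamts20 (chr15:94166170-94363299, minus strand), its closest relative, fell at 7 days. Its values at 48 hours were 284, 329.7, 323 and 317 with DMSO and 348, 221, 374 and 412 with sorafenib. Replicate 2 was the lowest of these, in the region of lowered counts, and without it the 48 hour log2 fold change moved from 0.13 (edgeR FDR 0.405) to 0.27 (edgeR FDR 0.00287), a rise. At 7 days DMSO libraries had 375, 349.5, 404 and 383 and sorafenib libraries 79.9, 69.03, 92.7 and 65.9, far apart, with a log2 fold change of −2.30 (SE 0.146, edgeR FDR 3.58e-11). Adamts15 (chr9:30810451-30833863, minus strand) fell to few counts. Raw counts were 69, 82, 61 and 98 with DMSO and 3, 9, 1 and 1 with sorafenib at 48 hours, and 86, 106, 101 and 102 with DMSO and 2, 1, 2 and 0 with sorafenib at 7 days. By counting, the fall was 17-fold (95% interval 10 to 31.4) at 48 hours and 78.1-fold (95% interval 33.2 to 242) at 7 days, intervals that cover counting error only. At 7 days no sorafenib library held more than the 3 counts taken as the floor. That fall is therefore only known to be at least 33.2-fold, and at 48 hours only replicate 2 was above the floor. The edgeR log2 fold change at 48 hours was −4.04 (edgeR FDR 2.55e-09), and −5.16 (edgeR FDR 1.28e-18) without replicate 2, which held 9 of the 14 counts of its group.

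Adamts5 (chr16:85653061-85698716, minus strand), the main aggrecan-degrading enzyme of mouse cartilage, rose instead. It had 204, 237, 200.1 and 215 normalized counts with DMSO and 894, 544, 898 and 911 with sorafenib at 48 hours, and 252, 323, 315 and 282 with DMSO and 526, 609.9, 570.3 and 489 with sorafenib at 7 days. All sorafenib libraries were above DMSO, including replicate 2 at 48 hours, where this gene lies in the lowered region. The log2 fold changes were 1.93 (SE 0.132, edgeR FDR 1.1e-10), or 2.07 (edgeR FDR 1.32e-29) without that replicate, and 0.90 (SE 0.128, edgeR FDR 4.17e-06). Adamts1 and Adamts4 were lower at 48 hours and higher at 7 days. Adamts1 had 2536, 2562, 2571 and 2679.7 with DMSO and 2138, 1381, 2211 and 2153 with sorafenib at 48 hours (log2 fold change −0.39, edgeR FDR 0.00118, and −0.25, edgeR FDR 1.51e-09, without replicate 2). At 7 days it was 1433 ± 52.8 and 1709 ± 21.5, and the log2 fold change of 0.25 (edgeR FDR 0.0253) did not pass when DMSO 7 days replicate 1 or 4 or sorafenib 7 days replicate 2 was left out (edgeR FDR 0.0526 to 0.0609). Adamts4 was 360.4 ± 27.9 and 261 ± 24.5 at 48 hours (log2 fold change −0.47, edgeR FDR 4.46e-05), and 133 ± 9.43 and 185 ± 14.7 at 7 days (log2 fold change 0.47, edgeR FDR 0.000157). Between 48 hours and 7 days in DMSO the pair fell by 0.85 (Adamts1) and 1.44 (Adamts4) on the log2 scale.

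**Figure D4:**
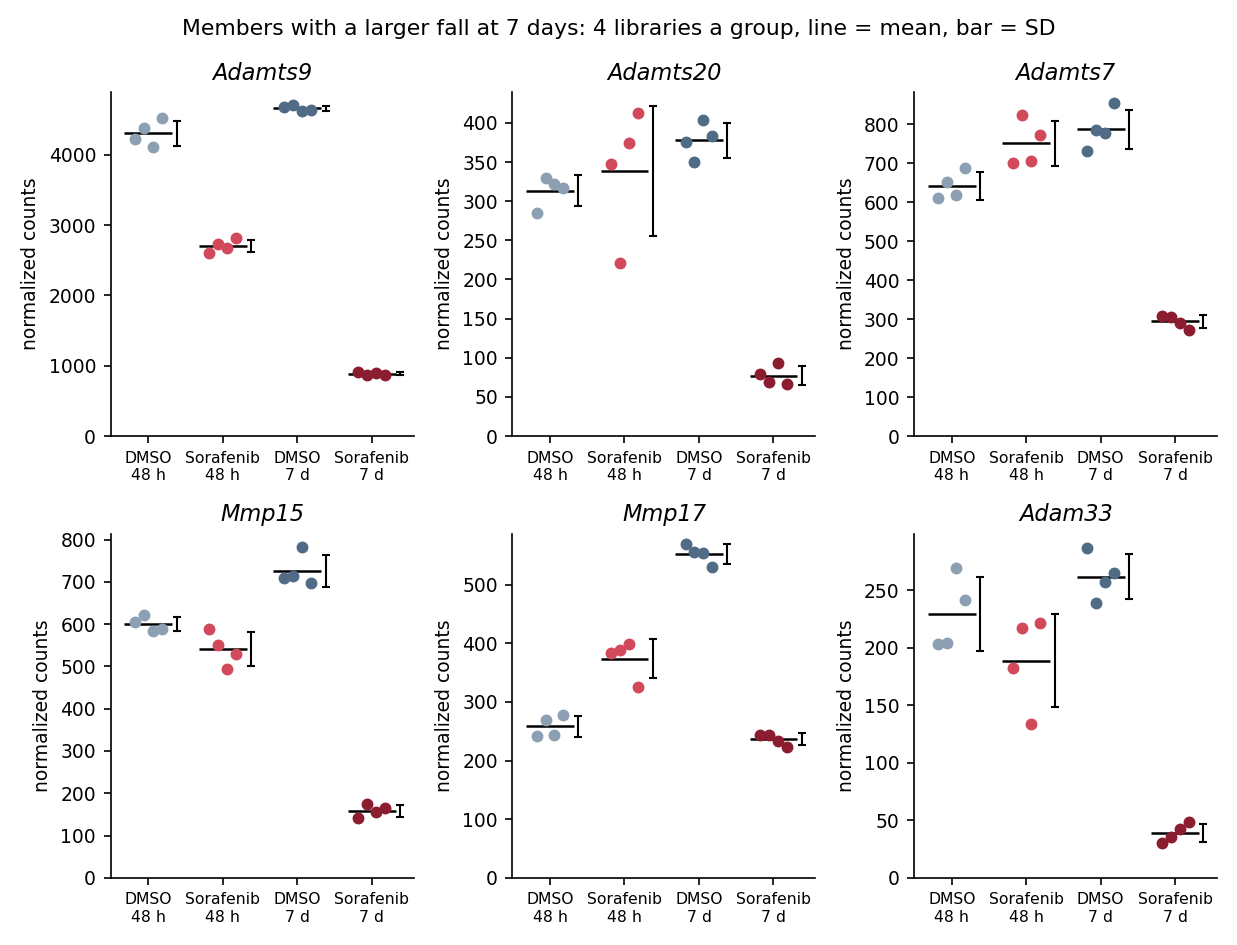
Normalized counts of Adamts9, Adamts20, Adamts7, Mmp15, Mmp17 and Adam33 in each of the 16 libraries (points), with the group mean (line) and SD (bar, n = 4). In each panel the 4 sorafenib libraries at 7 days lie below all DMSO libraries at 7 days, with Adamts9 at a mean of 888.6 against 4660.

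The 3 procollagen N-propeptidases, which remove the amino-terminal propeptide of fibrillar collagens, were split. Adamts14 (chr10:61032891-61109232, minus strand) had 466, 447, 471 and 516 normalized counts with DMSO and 1548, 1651, 1598 and 1629.7 with sorafenib at 48 hours. At 7 days it had 431, 444, 449.7 and 462 with DMSO and 758, 737, 798 and 762 with sorafenib. Sorafenib libraries were above DMSO at both times and highest at 48 hours, with log2 fold changes of 1.76 (SE 0.046, edgeR FDR 2.98e-17) and 0.77 (SE 0.0472, edgeR FDR 1.79e-11). Adamts2 rose by 1.11 (edgeR FDR 4.33e-14) and 0.66 (edgeR FDR 3.54e-10). Adamts3, known also for the activation of VEGF-C, was lower at 48 hours (log2 fold change −0.21, edgeR FDR 0.0032) and more so at 7 days (log2 fold change −1.17, edgeR FDR 1.27e-12). All 3 had a lower response at 7 days than at 48 hours by the interaction, which called 21.3% of all genes lower.

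Adamts7 and Adamts12, which cut the cartilage protein COMP, both rose at 48 hours and fell at 7 days. Adamts7 had 610.0, 652, 619.7 and 687 normalized counts with DMSO and 702, 824, 705 and 773 with sorafenib at 48 hours, and 733, 786, 777 and 854 with DMSO and 308, 305, 290.4 and 272 with sorafenib at 7 days. The rise was small next to the later fall, and the groups did not overlap in either comparison, with log2 fold changes of 0.22 (SE 0.0615, edgeR FDR 0.00446) and −1.42 (SE 0.065, edgeR FDR 1.82e-13). For Adamts12, in the lowered region, they were 0.53 (edgeR FDR 2.81e-05), 0.65 (edgeR FDR 2.74e-19) without replicate 2, and −0.66 (edgeR FDR 2.23e-06). Adamts16 showed the same crossing at a lower level. Its raw counts were 14, 12, 10 and 11 with DMSO and 49, 44, 47 and 42 with sorafenib at 48 hours, and 15, 16, 15 and 10 with DMSO and 4, 6, 6 and 0 with sorafenib at 7 days. By edgeR these were 2.35 (edgeR FDR 2.76e-07) and −1.76 (edgeR FDR 0.00116).

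Adamts6 and Adamts10 act on fibrillin microfibrils and moved in opposite directions. Adamts6 had 143, 139, 162 and 135 normalized counts with DMSO and 324, 398, 390.2 and 426 with sorafenib at 48 hours, and 73.5, 65.96, 49.2 and 60.3 with DMSO and 289, 264, 294 and 259.7 with sorafenib at 7 days. It was higher in every sorafenib library, with log2 fold changes of 1.42 (SE 0.0954, edgeR FDR 8.87e-11) and 2.16 (SE 0.11, edgeR FDR 1.07e-12). Adamts10 was 2062 ± 86.4 with DMSO and 1073 ± 196 with sorafenib at 48 hours (log2 fold change −0.94, edgeR FDR 1.79e-08, and −0.82, edgeR FDR 5.05e-22, without replicate 2), and 1097 ± 51.3 and 735 ± 61.1 at 7 days (log2 fold change −0.58, edgeR FDR 1.81e-05). Adamts17 (chr7:66489439-66802919, plus strand) had 224, 213, 219.5 and 201 normalized counts with DMSO and 2.81, 7.56, 11.4 and 4.54 with sorafenib at 48 hours, and 69.2, 59.1, 61.3 and 45.4 with DMSO and 1.12, 1.62, 2.62 and 0.984 with sorafenib at 7 days. No sorafenib library held more than 12 raw counts, with a fall of 30.8-fold (95% interval 20.4 to 48.8) by counting at 48 hours and 35.7-fold (95% interval 17.1 to 90.1) at 7 days. None of the 7 day sorafenib libraries held more than the 3 counts taken as the floor, so that fall is only known to be at least 17.1-fold. Its edgeR log2 fold changes were −4.92 (edgeR FDR 1.74e-14) and −5.06 (edgeR FDR 1.19e-11), and within DMSO it was lower at 7 days (log2 fold change −1.87, edgeR FDR 1.02e-10). Adamts19, in the lowered region, was 0.75 (edgeR FDR 3.39e-06) at 48 hours, 0.80 (edgeR FDR 6.08e-09) without replicate 2, and −0.14 (edgeR FDR 0.378) at 7 days.

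The 5 ADAMTS-like genes, which code for matrix proteins without protease activity, were all called higher at 48 hours, and 4 of them at 7 days, with none lower. Over all genes, 26.9% were called higher at 48 hours and 28.9% at 7 days. Adamtsl3 (chr7:81984645-82263658, plus strand) had raw counts of 3, 2, 4 and 4 with DMSO and 70, 98, 108 and 71 with sorafenib at 48 hours, and 18, 14, 8 and 12 with DMSO and 181, 210, 222 and 203 with sorafenib at 7 days. Every sorafenib library was far above the DMSO libraries of its time, 34.8-fold (95% interval 20.1 to 66.1) by counting at 48 hours and 15.9-fold (95% interval 12 to 21.4) at 7 days. By edgeR the log2 fold changes were 5.08 (edgeR FDR 1.06e-11) and 3.98 (edgeR FDR 9.43e-13). Adamtsl5 (chr10:80174944-80184936, minus strand), a microfibril-associated protein, had 29.3, 33.8, 29.6 and 36.3 normalized counts with DMSO and 417, 547, 439 and 412 with sorafenib at 48 hours, and 41.1, 58.3, 51.8 and 45.4 with DMSO and 599.5, 655, 694 and 595 with sorafenib at 7 days. Every sorafenib library was above every DMSO library, with log2 fold changes of 3.79 (SE 0.124, edgeR FDR 8.94e-16) and 3.68 (SE 0.109, edgeR FDR 1.83e-16).

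Adamtsl4, which binds fibrillin-1, rose by 1.13 (edgeR FDR 1e-09) at 48 hours and 1.203 (edgeR FDR 3.73e-10) at 7 days, from 148 ± 11.5 to 325 ± 28.9 and from 129.9 ± 16.02 to 301 ± 18.8. Adamtsl1 rose by 1.15 (edgeR FDR 9.06e-12) and 0.49 (edgeR FDR 3.07e-06). Adamtsl2, the fifth gene, was called at 48 hours on 13, 17, 10 and 11 counts with DMSO and 13, 22, 29 and 14 with sorafenib (log2 fold change 0.99, edgeR FDR 0.00857). Together the 5 had 2.01 ± 0.0905 CPM per kilobase with DMSO and 7.25 ± 0.724 with sorafenib at 48 hours, and 1.99 ± 0.182 and 8.01 ± 0.24 at 7 days. The 17 ADAMTS proteases summed to 57.5 ± 1.56 and 60.5 ± 4.88 at 48 hours, which overlapped, and with sorafenib replicate 2 left out of the mean the other 3 libraries had 62.8 ± 1.54 (61.9 to 64.6), above the highest DMSO library at 59.8. At 7 days the sums were 46.2 ± 0.328 with DMSO and 35.2 ± 0.693 with sorafenib, with no overlap.

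**Figure D5:**
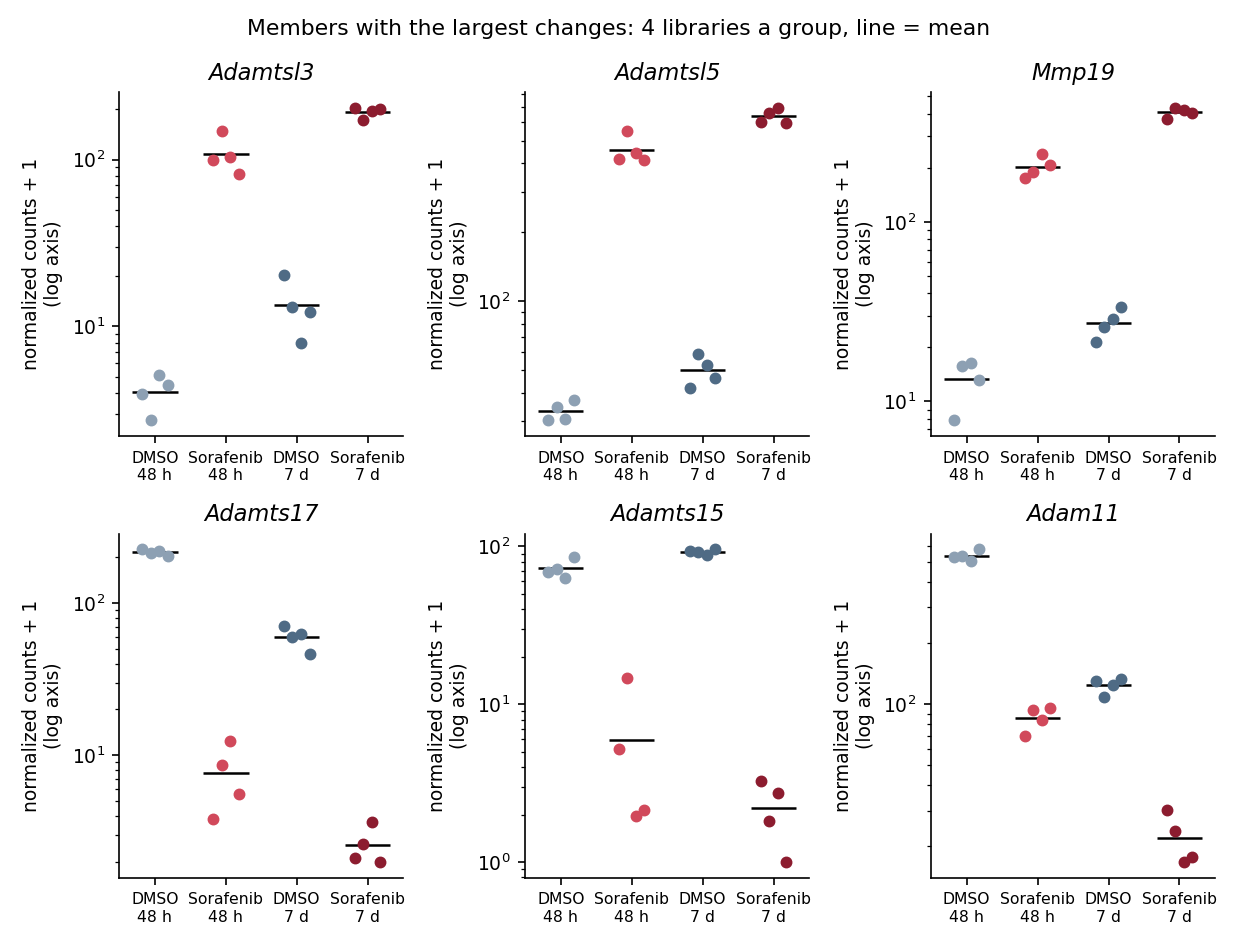
Normalized counts plus 1 on a log axis for Adamtsl3, Adamtsl5 and Mmp19 (upper row, higher with sorafenib) and Adamts17, Adamts15 and Adam11 (lower row, lower with sorafenib), with 1 point a library and a line at the mean of the plotted values (n = 4). The sorafenib libraries are apart from the DMSO libraries of the same time in all 6 panels.

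Per length, Adam10 had the highest level of the members with DMSO at 48 hours, 85.7 ± 1.87 CPM per kilobase, followed by Timp2 (58.8 ± 1.85), Mmp2 (52.2 ± 1.16), Timp3 (41.9 ± 0.809), Adam9 (30.8 ± 0.654) and Mmp14 (28.03 ± 0.903), each apart from its neighbor by more than these SDs. With sorafenib at 48 hours, the order was Timp2 (181 ± 5.56), Adam9 (149 ± 7.54), Timp3 (139 ± 6.49) and Adam10 (87.4 ± 2.4), where Adam9 and Timp3 lay within 2 SDs of each other. With DMSO at 7 days, Adam10 (103 ± 0.764) and Timp2 (101 ± 3.64) did not differ beyond their spread, and Mmp2 had dropped to 16.3 ± 0.759. With sorafenib at 7 days, Timp2 (201 ± 6.45) and Adam9 (149 ± 3.59) again led, with Adam10 at 66.3 ± 1.24. The order depends on the division by length. In CPM alone, Timp3 led with sorafenib at 48 hours (1134), before Timp2 (808) and Adam9 (649), and in the DMSO libraries at 48 hours it came second to Adam10 (341 and 478).

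Members also changed with time in vehicle. Between DMSO at 48 hours and DMSO at 7 days, 40 members were called, 23 higher and 17 lower at 7 days, against 49.4% of all genes (23.9% higher, 25.5% lower), with a median of 0.27 over the members and −0.01 over all genes tested. Over the 39 members with at least 10 counts in every library, the median was 0.02. Of the 42 members that averaged 50 or more normalized counts, 34 were called (71.2% of all genes at that level). This comparison shares its libraries with both drug comparisons, and only each comparison's own values are given. Among members described above, Mmp2 (log2 fold change −1.68, edgeR FDR 1.2e-16), Mmp11 (log2 fold change −1.40, edgeR FDR 1.3e-13), Adamts4 (log2 fold change −1.44, edgeR FDR 2.38e-11) and Adamts10 (log2 fold change −0.91, edgeR FDR 3.32e-08) fell, and Mmp17 (log2 fold change 1.09, edgeR FDR 2.61e-11), Adam12 (log2 fold change 0.97, edgeR FDR 3.27e-10), Adam9 (log2 fold change 0.89, edgeR FDR 1.79e-13) and Timp3 (log2 fold change 0.81, edgeR FDR 1e-13) rose.

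Genes around these proteases were followed in 5 lists, whose counts stand beside the 26.9% higher and 27.7% lower of all genes at 48 hours and 28.9% and 27.9% at 7 days, and beside medians of −0.05 and 0.02. Among 18 tested genes for activators, receptors and inhibitors of MMPs outside the families, 9 rose and 3 fell at 48 hours (median log2 fold change 0.12), and 11 rose and 3 fell at 7 days (0.32). Plaur, the urokinase receptor, rose by 1.93 (edgeR FDR 1.6e-16) and 1.49 (edgeR FDR 3.13e-15). Of 9 partners of ADAM10 and ADAM17, 4 rose and 3 fell at 48 hours (median 0.03), and 2 rose and 5 fell at 7 days (−0.15). These partners are tetraspanins and rhomboid-like proteins that carry the proteases to the cell surface, together with Frmd8 and Pacs2, which are neither. The ADAM10 tetraspanins Tspan33 and Tspan14 fell at both times, with −0.89 (edgeR FDR 5.25e-07) and −0.55 (edgeR FDR 4.08e-09) at 48 hours and −1.99 (edgeR FDR 4.08e-12) and −0.95 (edgeR FDR 1.25e-12) at 7 days, and Tspan17 rose by 1.78 (edgeR FDR 1.2e-07) at 48 hours and 2.01 (edgeR FDR 2.94e-09) at 7 days.

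Of 27 tested membrane proteins that ADAM10 or ADAM17 are known to shed, 17 rose and 4 fell at 48 hours (median 0.62), and 17 rose and 6 fell at 7 days (0.58). Cd44, the hyaluronan receptor, rose from 523 ± 15.8 to 4703 ± 274 normalized counts at 48 hours (log2 fold change 3.17, edgeR FDR 4.12e-20), and the membrane-bound chemokine Cx3cl1 by 2.52 (edgeR FDR 1.13e-12). At 7 days the EGF receptor ligand Ereg rose from 18.96 ± 2.97 to 276 ± 19.1 (log2 fold change 3.86, edgeR FDR 5.85e-15), and the adhesion protein Alcam fell from 8815 ± 153 to 796 ± 35.2 (log2 fold change −3.47, edgeR FDR 2.35e-16). Of 23 matrix substrates, 15 rose and 4 fell at 48 hours (median 1.26), and 14 rose and 5 fell at 7 days (0.59). The interaction was called lower for 17 of these 23 and higher for 1, and for 14 and 4 of the 27 shed proteins. In the other lists it was lower for 6 and higher for 5 of 18 activators, receptors and inhibitors. It was lower for 5 and higher for 2 of 9 partners, and lower for 3 and higher for 1 of 5 other metalloproteases. Over all genes it was lower for 21.3% and higher for 15.5%, and for 35.2% and 19.9% of those averaging 50 or more normalized counts. Col4a1, of the basement membrane, rose from 15510 ± 120 to 60420 ± 2300 at 48 hours (log2 fold change 1.96, edgeR FDR 2.01e-20). At 7 days Eln, elastin, fell from 7897 ± 519 to 175 ± 17 (log2 fold change −5.50, edgeR FDR 6.27e-21) and the proteoglycan Dcn from 4890 ± 146 to 993 ± 38.8 (log2 fold change −2.30, edgeR FDR 1.63e-18). Of 5 other secreted metalloproteases, 1 rose and 1 fell at 48 hours (median 0.04), and 2 rose and 2 fell at 7 days (0.41). Tll1, which processes procollagens, rose from 13.2 ± 0.33 to 132 ± 32 at 48 hours (log2 fold change 3.30, edgeR FDR 1.23e-11). Pappa and Pappa2, which cut binding proteins of insulin-like growth factors, fell at 7 days by 3.85 and 3.19 on the log2 scale (edgeR FDR 6.33e-18 and 3.92e-16).

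The remaining members had few reads. Adam28 had no counts with sorafenib at 48 hours and 2, 1, 0 and 0 at 7 days, against 6, 12, 7 and 1 with DMSO, a fall of 8.55-fold (95% interval 2.62 to 44.2) by counting (log2 fold change −2.88, edgeR FDR 0.00693). Its sorafenib libraries were all below the floor of 3 counts, so this fall is only known to be at least 2.62-fold. Mmp27 had none with sorafenib at 7 days, against 1, 4, 6 and 3 with DMSO, all at most 6 counts, so no fold is given. Adam32 (log2 fold change 1.41, edgeR FDR 0.0218) and Adam5 (log2 fold change 3.79, edgeR FDR 0.00161) were called higher and Adamts8 (log2 fold change −2.25, edgeR FDR 0.0367) lower at 7 days, none with more than 18 counts in a library. The call of Adamts8 was lost without any one of DMSO replicates 1 and 3 and sorafenib replicates 1, 3 and 4 (FDR 0.0582 to 0.109), and that of Adam32 without sorafenib replicate 1 (FDR 0.053). Adamts8 also lost its call in DESeq2 (FDR 0.0542) and in edgeR with a replicate block (FDR 0.0548). With other single libraries left out, Adamts8 reached −3.46, Adam5 5.30 and Adam28 −3.87. Adam1a, Adam1b, Adam4, Adam21 and Mmp21 were not called at either time. Adam21 (without sorafenib replicate 3) and Adam4 (without sorafenib replicate 1) were called lower at 48 hours, and Adam1a (without sorafenib replicate 3) and Adam1b (without DMSO 48 hours replicate 3 or sorafenib replicate 4) higher at 7 days. Mmp21, with 11 counts in total, was the member nearest the limit, and Adamts13 (8), Mmp12 (7), Timp4 (7) and Adam3 (6) were the nearest below it. Of the 24 symbols left out, 12 had 1 to 9 counts and 12 had none, including Mmp7.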

How the data were processed

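Total RNA of the 16 libraries was made into Illumina stranded mRNA libraries and sequenced on an Illumina NovaSeq instrument. The authors aligned reads to GRCm39 with STAR 2.7.1a and deposited raw counts per gene, with no normalization, for 40840 genes. The submitters' processing notes also list featureCounts 2.0.6 and DESeq2 1.40.2, while the strand setting and annotation of the counting are not given in the sources used here.

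Genes with at least 10 counts in total (20444) entered a single quasi-likelihood fit in edgeR 4.0.16 (R 4.3.3), with TMM factors and 1 coefficient a group over all 16 libraries. Contrasts were sorafenib against DMSO at each time, their difference, and DMSO at 7 days against 48 hours. Calls were made at a Benjamini-Hochberg FDR under 0.05. The standard error is the log2 fold change divided by the square root of F. An exact permutation test of 4 libraries against 4, over 70 splits, cannot go below p = 0.0286 and is not quoted. Intervals of count ratios are exact 95% intervals and cover counting error only. Gene positions, exon lengths, overlaps and promoters came from GENCODE vM39 on GRCm39. Scripts were tested on simulated data. Replicates differed by more than counting error (lowest chi-square per gene 1.49), so none was counted as a repeat. Within groups these differences were uneven. DMSO 7 days replicate 4 differed from replicates 1 to 3 by 41.4 to 55, and those from each other by 1.78 to 2.79. In DMSO 48 hours, replicates 1 and 4 (4.2) and 2 and 3 (4.83) were closest, with 14.5 to 32.7 for the other pairs. Sorafenib 48 hours replicate 2 differed from the others by 27 to 30.7. The cause was not tested.

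The members and lists were chosen with earlier results of these data known. Named members were, at each time, the 8 largest rises and 8 largest falls among called members averaging 50 or more normalized counts, the 5 largest interactions, and Mmp2, Mmp9, Mmp14, Mmp15, Timp1 to Timp4, Adam9, Adam10, Adam15, Adam17, Adamts1, Adamts5 and Adamts13. In the lists, the 2 called genes with the largest change at each time were named. Every other member, such as Adamts15, Adam12 or Mmp8, was named after its values were seen, to account for all 61. Alternatives were DESeq2 1.42.0, DESeq2 size factors or total counts in place of TMM, other filters, an added fold threshold, only the 8 libraries compared, a replicate block and each library left out in turn. After the data were seen, the fit without sorafenib 48 hours replicate 2 was also quoted by itself. Some genes that the naming rule picks are not reported here.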

Additional observations from a re-analysis of the deposited data

Results flagged for a closer look

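In 10 of 132 groups of 4 libraries (33 named members), 1 library stood apart from the other 3 by Dixon's criterion, which chance alone meets in about 1 group in 20. At 462.11 normalized counts, sorafenib 7 days replicate 2 was low for Mmp23, where the others had 488.91 to 493.29. For Adamts5, sorafenib 48 hours replicate 2 had 544.37, low beside 893.79 to 910.84 in the others. Adamts10 was at 1174.2 in DMSO 7 days replicate 1, high against 1069.1 to 1075.9. At 1380.6 normalized counts, sorafenib 48 hours replicate 2 was low for Adamts1, where the others had 2138.4 to 2210.9. For Mmp28, sorafenib 48 hours replicate 2 had 84.68, high beside 49.971 to 55.202 in the others. Mmp28 was at 97.861 in sorafenib 7 days replicate 1, low against 113.13 to 116.14. At 328.45 normalized counts, sorafenib 7 days replicate 1 was high for Adamtsl4, where the others had 288.31 to 294.13. Mmp9 was at 0.86413 in DMSO 48 hours replicate 4, which is 1 raw count, where the others had no counts. Mmp9 was at 2.2714 in sorafenib 48 hours replicate 4, which is 2 raw counts, where the others had no counts. With the others at 0, any read meets the criterion, so the rate of 1 in 20 does not apply to these Mmp9 groups. At 2359.1 normalized counts, DMSO 48 hours replicate 4 was high for Adam15, where the others had 2242.6 to 2250.2. Adamts5 and Adamts1 lie in the region where sorafenib 48 hours replicate 2 had lowered counts.

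The response to sorafenib differed between 7 days and 48 hours for 24 of the 33 named members by edgeR's interaction test (FDR under 0.05). The same test called 36.8% of all genes (21.3% lower, 15.5% higher) and 55.2% of those averaging 50 or more normalized counts. Named members were picked in part for large changes and large interactions, so a high count follows in part from that choice. The difference in log2 fold change was below 0 for 16 of the 24. It was Adam33 −2.427, Adamts20 −2.425, Mmp15 −2.028, Mmp17 −1.756, Adamts9 −1.72, Adamts7 −1.643, Mmp23 −1.084 and Adamts5 −1.026. Smaller differences were Adamts14 −0.984, Adam9 −0.893, Timp3 −0.805, Adam10 −0.669, Timp2 −0.633, Mmp14 −0.63, Mmp2 −0.157 and Adam17 −0.155. For the other 8 it was above 0, with Mmp28 2.41, Mmp11 1.295, Adamts4 0.938, Adam8 0.839, Adamts6 0.742, Adamts1 0.64, Adamts10 0.356 and Adam15 0.23. The FDR ranged from 1.59e-15 for Adamts9 to 0.0359 for Mmp2.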

How the results depend on the processing

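Of the alternatives, only the further demand that a called log2 fold change reach 1 in size moved the counts of called members by over 1.5 times, to 22 at 48 hours, 30 at 7 days, 15 for the interaction and 16 for DMSO over time. Leaving out each library in turn gave 41 to 47, 46 to 50, 33 to 38 and 38 to 44. DESeq2 called 43, 47, 36 and 40. With at least 10 counts in every library, only 39 members could be tested. Replicate numbers did not pair the libraries (correlations of −0.048 to 0.011 at 48 hours and −0.007 to 0.123 at 7 days), and with a replicate block 41, 47, 34 and 39 members were called. Over the alternatives, the median log2 fold change of the members ranged from 0.17 to 0.32 at 48 hours and from 0.003 to 0.236 at 7 days, from −0.567 to −0.291 for the interaction, and from 0.02 to 0.285 for DMSO over time, where 0.02 came with the filter of 10 counts in every library. Of the 122 log2 fold changes of single members, 102 kept their side of the threshold in every alternative run, of which 82 were called and kept their direction and 20 were not called, 6 of these taking both signs. No called one changed sign, and the rest lost or gained a call in at least 1 alternative. With total counts in place of TMM, DMSO over time called 20 members higher and 20 lower. The cause of these shifts was not tested. Depth limits the 19 members with a mean under 50 normalized counts, for which an uncalled change was not detectable at this depth.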
